A study of Mus musculus with 6 samples.

Results

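Desmosomes are the junctions that fasten neighbouring epithelial cells to one another and anchor their keratin filaments. The genes described here encode the desmosomal cadherins, which are the desmogleins Dsg2, Dsg3 and Dsg4 and the desmocollins Dsc1, Dsc2 and Dsc3, and the plaque proteins desmoplakin (Dsp), plakoglobin (Jup) and the plakophilins Pkp1 and Pkp3. Members were taken as every probe set whose platform annotation names 1 of these 10 genes alone. This gave 19 of the 45101 probe sets on the array, for 8 of the 10 genes. There were 6 for Dsg2, 3 for Dsp, 2 each for Dsc1, Dsc2, Dsc3 and Pkp3, and 1 each for Jup and Pkp1. No probe set was annotated to Dsg3 or Dsg4 alone, and these 2 genes are not analysed here. Probe sets annotated to several genes were not taken.

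Total RNA from mouse hair bulbs on postnatal day 9, during growth of the first coat, was hybridised to 6 one-colour arrays. The emN1 bulbs (2 arrays) came from a skin area where Notch1 had been deleted in the embryo, so that functional Notch1 was missing. The anN1 bulbs (2 arrays) came from an area deleted during the growth phase, called anagen, where functional Notch1 was still present, and the last group were wild-type bulbs (2 arrays). The study treats anN1 and wild-type as controls, and the main comparison here sets 2 emN1 arrays against these 4. The arrays were run in 2 sets, of which the first held emN1 replicate 1 and anN1 replicate 1 and the second the other 4 arrays. The sources used here do not give the driver of the deletion, the mouse strain, the sex or the number of animals behind a sample. Replicates are labelled biological, but nothing ties them to separate animals. A p-value therefore reflects only how these samples spread, which may be technical. Values are MAS5 signals, which compare 1 probe set between arrays and do not compare the levels of different genes.

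In a desmosome the cadherins of both cells meet outside the membrane, and inside it their tails bind plakoglobin and plakophilins. Desmoplakin joins this plaque to the keratin filaments. In hair follicles Dsg4 is the desmoglein of the differentiating shaft, while Dsg3 and Dsc3 are typical of basal and outer sheath keratinocytes and Dsc1 of differentiating layers. Plakoglobin also serves in adherens junctions, where it takes the place of beta-catenin on classical cadherins.

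Of the 8 genes measured, 1 passed the test between emN1 and controls. With log2 differences tested by limma and Benjamini-Hochberg adjustment over all 27022 kept probe sets, 1 of the 19 members was higher past the threshold of 0.05 and 0 were lower. That is 5.26% of the members, against 3.77% of all kept probe sets past the threshold in either direction (2.41% higher and 1.37% lower), a share near the background. The probe set that passed was Jup. The median member differed by 0.00, against -0.01 for all kept probe sets, and the members ran from -0.94 to 0.70. For 12 of the 19 (63.2%) the difference was smaller than 0.3 log2 units, against 60.8% of all kept probe sets. Against anN1 alone that share was 47.4% (59.2% of all kept probe sets), and against wild-type alone 47.4% (54.5%). At an unadjusted p under 0.05 there were 6 members (31.6%), against 16.6% of all kept probe sets. They were 3 probe sets of Dsg2, all lower in emN1, and those of Jup and Pkp3, all higher. All 19 members passed the filter on dim probe sets, and 1 of their 114 values lay under the background limit of 112, the 95th percentile of bacterial control probe sets that stayed dim on every array.

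**Figure D1:**
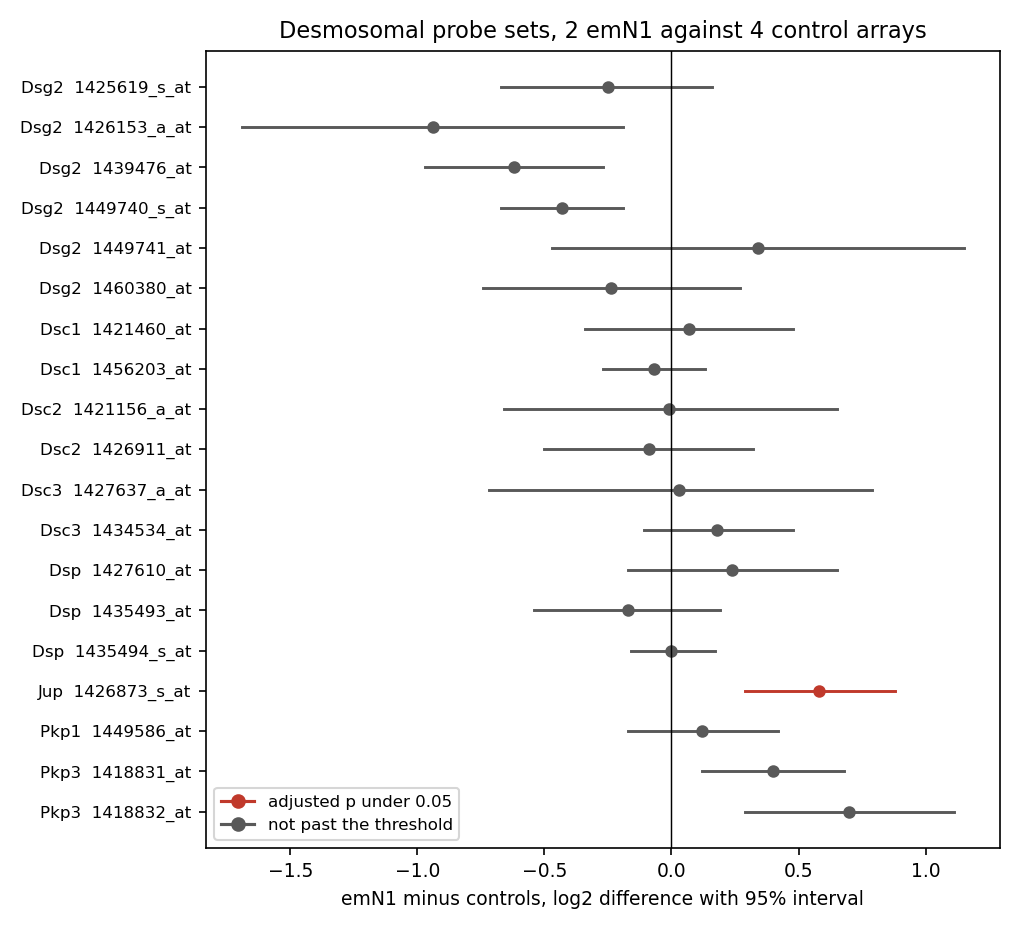
Log2 difference between 2 emN1 and 4 control arrays (horizontal axis) for each of the 19 desmosomal probe sets (vertical axis), with bars for the 95% interval of the limma fit. The interval of Jup runs from 0.29 to 0.88 and is the only one in red, while 3 probe sets of Dsg2 lie wholly below 0 and both of Pkp3 wholly above it without passing the adjusted threshold.

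Notch1, whose loss defines emN1, was lower in both emN1 arrays than in every control for both of its probe sets, by -0.96 (SE 0.17) and -1.55 (SE 0.35) on the log2 scale (limma adjusted p = 0.0211 and 0.0491). The second of these probe sets gave 6498 and 6292 in emN1, 15077 and 12527 in anN1, and 23750 and 34070 in wild-type. It differed by -1.10 (SE 0.18) between emN1 and anN1 and by -2.23 (SE 0.20) between emN1 and wild-type. The anN1 arrays were themselves under the wild-type ones, by -1.13 (SE 0.20), which did not pass (limma adjusted p = 0.289). Markers of other cell types moved between the groups. Of 8 melanocyte markers 8 fell, of 7 fibroblast markers 5 rose, of 7 immune markers 3 rose and of 4 endothelial and contractile markers 3 rose. Those last 3 were Tagln, Cspg4 and Acta2. For the range of that list, the endothelial gene Kdr differed by 0.43 (SE 0.92) without passing. The pigment cell genes Trpm1 and Sox10 fell (log2 differences of -2.46 and -2.27), while the fibroblast gene Thy1 rose by 1.51, the macrophage receptor Csf1r by 2.72 and the contractile gene Tagln by 1.69. The summed signal of the melanocyte list was 107120 and 90975 in emN1, against 217405 to 308239 in the controls, and that of the fibroblast list was 135817 and 112021, against 69790 to 91178. The immune sum was 5643 and 7071 in emN1, against 1324 to 1668, with Cd207 under the background limit on all arrays. The endothelial and contractile sum was 39902 and 40350, against 15333 to 22603, with Pecam1 under that limit on all arrays. Acta2 made up 30584 and 28646 of this sum in emN1 and 12210 to 19304 in the controls. In whole bulbs, fewer cells of a type and less RNA per cell cannot be told apart, and the part that the mixture of cells has in the junction values was not tested.

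Plakoglobin, encoded by Jup, rose in the emN1 bulbs. Its probe set 1426873_s_at gave 7256 and 9902 signal units in emN1, 5070 and 5834 in anN1, and 6101 and 7403 in wild-type. Each emN1 array was above every control of its own array set, but emN1 replicate 1 lay just under wild-type replicate 2, which was in the other set. The difference was 0.58 (SE 0.13, 95% interval 0.29 to 0.88; 2 against 4 arrays), a 1.5-fold increase with a limma adjusted p of 0.0482. Against anN1 alone it was 0.64 (SE 0.14; limma adjusted p = 0.0887), at 0.52 in the first set and 0.76 in the second. Against wild-type alone it was 0.50 (SE 0.16; limma adjusted p = 0.23). The direction was the same under all 15 alternatives, and 10 of them lost the call, among them the fit without limma's intensity trend (adjusted p = 0.211), in which 0 of the 27022 kept probe sets passed. Leaving out emN1 replicate 1 or 2, anN1 replicate 1 or 2 or wild-type replicate 1 lost it (adjusted p = 0.203, 0.341, 0.196, 0.0968 and 0.0987), with values of 0.52 to 0.64 over the 6 arrays left out in turn. Without emN1 or anN1 replicate 1, the estimate rests on the second set alone. Without emN1 replicate 2, it is 1 emN1 array against 1 anN1 array of the first set. The suffix of the Jup probe set marks probes that can match more than 1 transcript, and no other probe set was annotated to Jup alone. The same suffix is carried by Dsp 1435494_s_at, by Dsg2 1449740_s_at and 1425619_s_at, and by Pkp2 1449799_s_at, all described below.

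The sequences before the start sites of Jup, which rose, and of Dsp, whose probe sets did not pass, are shown to set the plakoglobin promoter beside that of its binding partner in the plaque. They come from RefSeq, assembly GRCm38.p6, whose promoter table matched 2 of the 10 genes. The Jup stretch is chr11:100397841-100398040 on the minus strand, from 250 to 51 bases before the start, and the Dsp stretch is chr13:38151044-38151293 on the plus strand, from 250 to 1 bases before the start. Both are lower case and written 5′ to 3′, with capitals for matches to any of the motifs searched on both strands.
Jup: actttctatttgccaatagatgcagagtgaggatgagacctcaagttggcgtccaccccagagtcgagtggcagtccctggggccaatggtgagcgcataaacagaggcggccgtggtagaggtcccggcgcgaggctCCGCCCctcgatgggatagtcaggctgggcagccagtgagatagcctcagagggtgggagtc
Dsp: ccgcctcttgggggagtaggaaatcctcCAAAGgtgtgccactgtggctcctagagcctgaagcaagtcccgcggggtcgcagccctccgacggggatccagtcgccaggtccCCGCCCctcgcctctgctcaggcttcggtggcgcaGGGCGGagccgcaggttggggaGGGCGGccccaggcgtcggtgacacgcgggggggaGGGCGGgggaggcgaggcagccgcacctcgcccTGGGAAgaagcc

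The motifs searched were the GC box GGGCGG, the core TGGGAA bound by RBPJ, the DNA-binding partner of Notch, the core CTTTG of LEF and TCF factors, the AP-1 site TGANTCA and the E-box CACCTG of Snail and Zeb factors. The Jup stretch held 1 GC box, found in 24.6% of the 32851 RefSeq promoters over the same 200 bases. It held no match to the other 4 motifs, which were found in 17.9%, 42.3%, 5.57% and 14.4% of them in the order given. The Jup stretch ends 51 bases before the start, and the bases nearer the start were not searched. The Dsp stretch held 4 GC boxes, 1 RBPJ core and 1 LEF and TCF core, which were found in 32.7%, 21.6% and 48.6% of promoters over 250 bases. It held no AP-1 site or CACCTG, which were found in 6.75% and 17.2%. The RBPJ core and the last GC box of Dsp lie in the part nearest the start, which was not searched for Jup. The matches in Jup and Dsp are therefore not like for like. No matches of different motifs overlapped. A match is a description of letters and does not show binding.

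Desmoplakin, encoded by Dsp, showed no difference past the threshold with any of its 3 probe sets. The brightest, 1435494_s_at, gave 56062 and 63517 in emN1, 56630 and 61160 in anN1, and 63984 and 64077 in wild-type. Its emN1 values lay within the range of the controls but for the lowest, and the difference was 0.00 (SE 0.07), with a 95% interval of -0.16 to 0.17. Values for 1435493_at were 56319 and 40810 in emN1, 59214 and 39216 in anN1, and 61118 and 46908 in wild-type, a difference of -0.17 (SE 0.16). The third, 1427610_at, differed by 0.24 (SE 0.18), and its 95% interval of -0.17 to 0.65 is wider. The limma adjusted p was 0.998, 0.672 and 0.578 for the 3 in this order.

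The plakophilins bind the cadherin tails and desmoplakin and widen the plaque. Pkp3, which is found in most epithelial layers, had values higher in emN1 in both probe sets, and neither passed. The brighter, 1418831_at, gave 39751 and 30352 in emN1, 26184 and 28690 in anN1, and 24413 and 22873 in wild-type. It was the single member with both emN1 arrays above all 4 controls. The difference was 0.40 (SE 0.12, 95% interval 0.12 to 0.68; limma adjusted p = 0.129), at 0.60 against anN1 in the first array set and 0.08 in the second. The second probe set, 1418832_at, gave 4210 and 5126 in emN1, 1939 and 4232 in anN1, and 3865 and 3398 in wild-type. Here emN1 replicate 1 was just under anN1 replicate 2, and the difference was 0.70 (SE 0.18; limma adjusted p = 0.0786), at 1.11 in the first set and 0.28 in the second. Over the 6 arrays left out in turn it ran from 0.42 (without emN1 or anN1 replicate 1) to 1.11 (without emN1 replicate 2), and 1418831_at from 0.27 to 0.60 at the same arrays. Pkp1, a plakophilin of differentiating stratified layers, did not pass. It gave 55462 and 47806 in emN1, 55710 and 45320 in anN1, and 45503 and 34537 in wild-type, a difference of 0.12 (SE 0.13, 95% interval -0.17 to 0.42; limma adjusted p = 0.722). Its emN1 arrays fell among the controls.

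**Figure D2:**
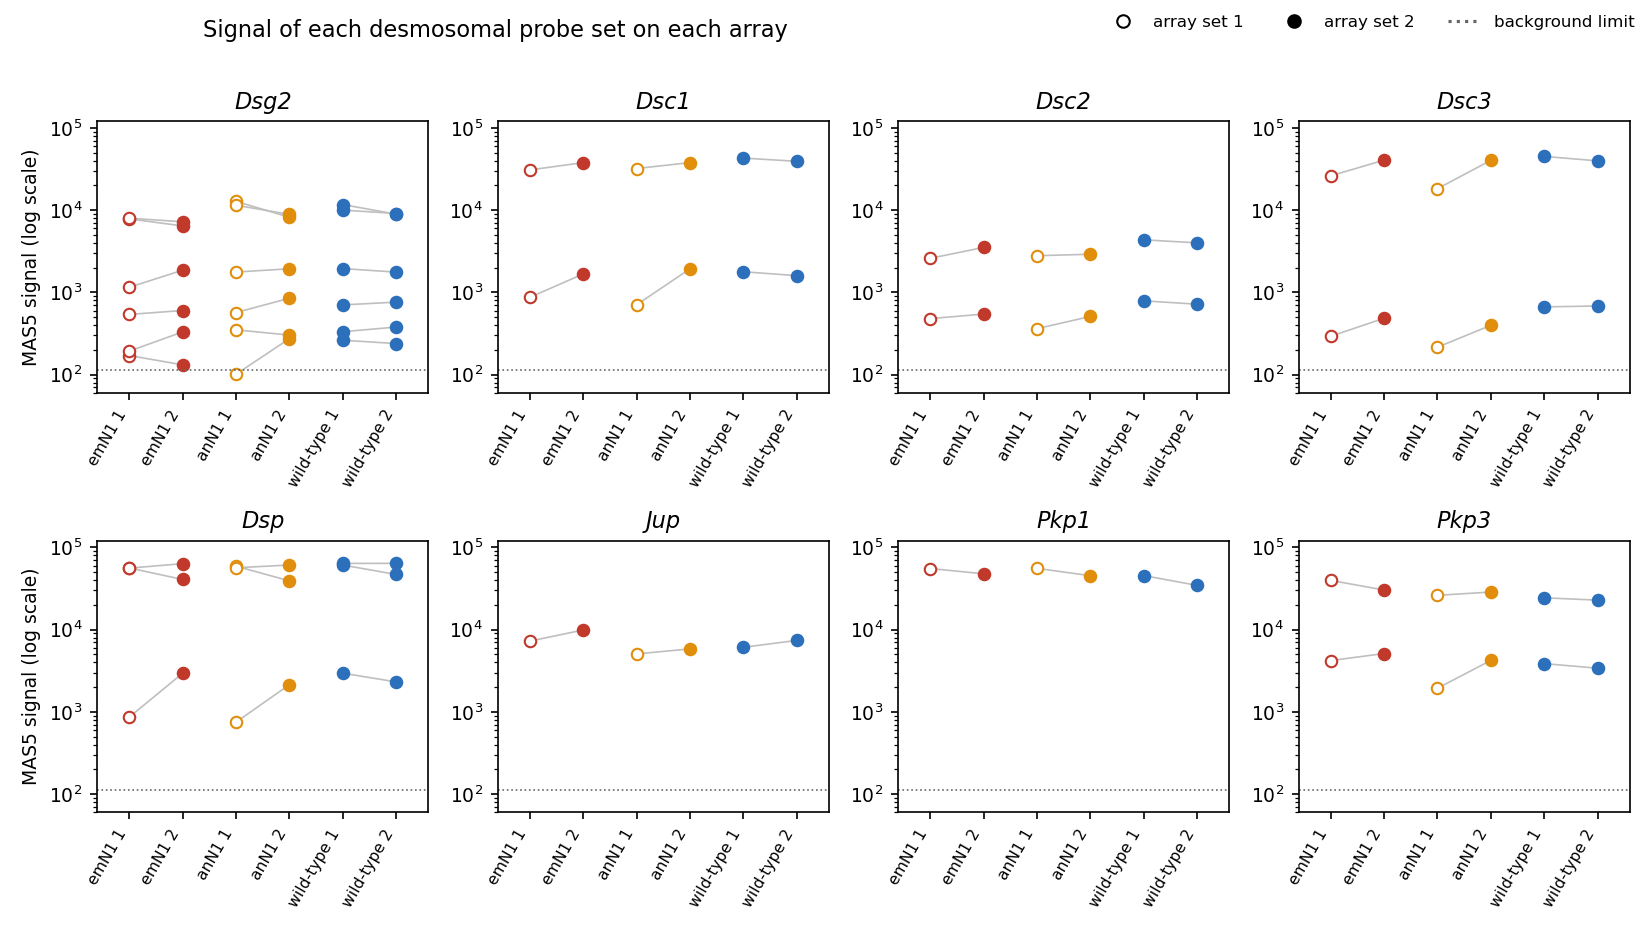
MAS5 signal (vertical log axis) of each desmosomal probe set on each of the 6 arrays (horizontal axis), 1 panel per gene, with grey lines joining the replicates of a group, open circles for array set 1, filled circles for set 2, and a dotted line at the background limit of 112. Both bright Dsg2 probe sets are lowest in emN1, and the Jup values are higher in emN1 within each set. All probe sets of Dsc1, Dsc2 and Dsc3, and some of Dsp and Dsg2, are higher on every set 2 array than on both set 1 arrays. Set 2 also holds both wild-type arrays.

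Dsg2, the desmoglein of simple epithelia and basal keratinocytes, had 5 of 6 probe sets below 0 in emN1, and none passed the adjusted threshold. Probe set 1439476_at gave 7825 and 6424 in emN1, 12767 and 8187 in anN1, and 11672 and 8928 in wild-type. Probe set 1449740_s_at, of nearly the same level, gave 7974 and 7211 in emN1, 11468 and 8872 in anN1, and 10010 and 9094 in wild-type. In both, each emN1 array was under every control. The differences were -0.62 (SE 0.15, 95% interval -0.97 to -0.27) and -0.43 (SE 0.11, 95% interval -0.67 to -0.19), with limma adjusted p of 0.0692 and 0.0687. The dimmer 1426153_a_at was also under every control in both emN1 arrays, at 170.2 and 131 in emN1, 349.7 and 302 in anN1, and 261 and 238 in wild-type. Its difference was -0.94 (SE 0.33; limma adjusted p = 0.187), the lowest of the members, with emN1 values not far above the background limit of 112. With Pkp3, these 3 make 4 of 19 members (21.1%) in which emN1 and controls did not overlap, against 19.3% of all kept probe sets (9.99% with emN1 above and 9.33% with emN1 below).

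The other 3 Dsg2 probe sets were less uniform. Probe set 1425619_s_at gave 1151 and 1859 in emN1 against 1760 to 1945 in the controls, so that 1 emN1 array was low and the other within their range. Its difference was -0.25 (SE 0.18), and that of 1460380_at was -0.24 (SE 0.22). Probe set 1449741_at went the other way, at 192 and 330 in emN1, 101 and 273 in anN1, and 332 and 378 in wild-type, a difference of 0.34 (SE 0.35). Its value in anN1 replicate 1 is the single member value under the background limit. Over the 6 arrays left out in turn, 1439476_at ranged from -0.70 to -0.54, 1449740_s_at from -0.52 to -0.37 and 1426153_a_at from -0.99 to -0.90. The ranges of the other 3 were wider, at -0.61 to -0.01 for 1425619_s_at, -0.34 to -0.07 for 1460380_at and 0.02 to 0.82 for 1449741_at. Against wild-type alone, 1439476_at differed by -0.76 (SE 0.18; limma adjusted p = 0.106).

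The desmocollins pair with the desmogleins in the cadherin layer, and none of their 6 probe sets passed. Dsc1, the desmocollin of differentiating keratinocytes, gave 30815 and 37811 in emN1, 32067 and 37825 in anN1, and 42964 and 39214 in wild-type with 1456203_at. The emN1 and anN1 arrays of a set were within a few percent of each other there, and the difference of emN1 from controls was -0.07 (SE 0.09, 95% interval -0.27 to 0.13). The dimmer 1421460_at differed by 0.07 (SE 0.18). Dsc3, the desmocollin of basal keratinocytes, gave 26122 and 40541 in emN1, 18232 and 40330 in anN1, and 45014 and 39718 in wild-type with 1434534_at. The difference was 0.18 (SE 0.13), at 0.52 against anN1 in the first set and 0.01 in the second, and that of the dimmer 1427637_a_at was 0.03 (SE 0.33). Dsc2, the widely expressed desmocollin, gave 2592 and 3514 in emN1, 2789 and 2906 in anN1, and 4352 and 3994 in wild-type with 1426911_at. Both wild-type arrays were above all others, and the difference of emN1 from the pooled controls was -0.09 (SE 0.18), while its other probe set differed by -0.01 (SE 0.29). The limma adjusted p of the 6 ran from 0.546 (Dsc3) to 0.995 (Dsc2).

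Set against anN1 alone, the control of the same sets, 0 of 19 members passed limma (6 at an unadjusted p under 0.05), against 2.02% of all kept probe sets past the threshold (1.35% higher and 0.662% lower) and 13.4% at an unadjusted p under 0.05. The smallest limma adjusted p was that of Jup, 0.0887. In both array sets 8 members were higher in emN1 than in anN1 and 6 lower (42.1% and 31.6%), against 27.5% and 31.1% of all kept probe sets, and 5 differed in sign between the sets. The 6 lower were 5 of the Dsg2 probe sets and 1 of Dsc1. Against wild-type alone, 0 of 19 members passed limma (6 at an unadjusted p under 0.05), against 2.16% of all kept probe sets past the threshold (1.53% higher and 0.629% lower) and 13.2% at an unadjusted p under 0.05. These comparisons share the emN1 arrays and are not independent of each other.

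**Figure D3:**
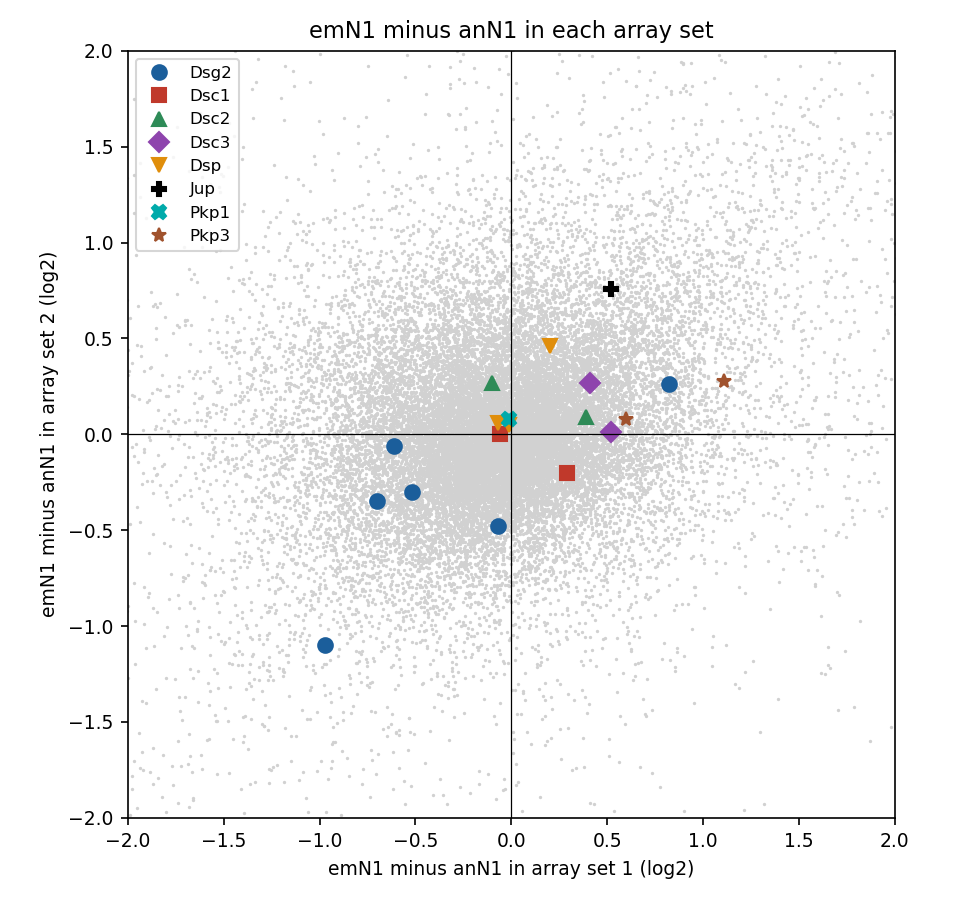
Log2 difference between emN1 and anN1 in array set 1 (horizontal axis) and in set 2 (vertical axis), 1 array against 1 in each, for the desmosomal probe sets (coloured by gene) and all kept probe sets (grey, those within 2 log2 units). Jup lies at 0.52 and 0.76, both Pkp3 probe sets are higher in set 1 than in set 2, and 5 of the 6 Dsg2 points are below 0 in both sets.

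The control groups were also set against each other. Between anN1 and wild-type, 0 of 19 members passed limma (2 at an unadjusted p under 0.05), against 0.074% of all kept probe sets past the threshold (0.0518% higher and 0.0222% lower) and 3.64% at an unadjusted p under 0.05. The members' median was -0.10, against 0.03 for all kept probe sets. Within the second array set, both wild-type arrays were above emN1 replicate 2 and anN1 replicate 2 in 9 of the 19 members (47.4%), against 17.1% of all kept probe sets, a count made after the values were seen. The 9 belonged to 5 genes, namely Dsg2, Dsc1, Dsc2, Dsc3 and Dsp, and probe sets of 1 gene are not independent. For Dsc2 1426911_at, the log2 differences of emN1 and anN1 replicate 2 from the wild-type mean were -0.25 and -0.52, and for Dsc3 1427637_a_at they were -0.46 and -0.74. In the full fit the Dsc2 difference was -0.34 (SE 0.18) between emN1 and wild-type and -0.42 (SE 0.18) between anN1 and wild-type, neither past the threshold (limma adjusted p = 0.499 and 0.999). For Dsp 1435493_at both were -0.42 (SE 0.15; limma adjusted p = 0.275 and 0.999).

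Some members moved more with the array set than with the genotype. In set 2 minus set 1, Dsp 1427610_at was 3.42-fold higher in emN1 and 2.86-fold in anN1, while the brighter 1435493_at was 0.725-fold and 0.662-fold. Dsc1 1421460_at was 1.93-fold and 2.74-fold higher in set 2, and Dsc3 1434534_at 1.55-fold and 2.21-fold. A difference between sets of over 1 log2 unit was found for 1 of the 19 members in emN1 and 5 of the 19 in anN1. Of all kept probe sets, 12.3% and 11.6% differed that much. The members' share was thus lower than that in emN1 and higher in anN1. The ratio of 5′ to 3′ signal of beta-actin, a measure of how complete the labelled transcripts are, was 0.37 to 0.419 in set 2 and 0.177 to 0.218 in set 1, and its part in these values was not tested. For Gapdh the ratio was 0.184 to 0.215 in set 2, and 0.209 and 0.144 in set 1.

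Among other genes of the desmosome and the cornified junction, 1 of 9 fell in emN1, 0 rose and 8 did not pass (median 0.07). The one that fell was Pkp2, the plakophilin of simple epithelia, heart and basal keratinocytes. Its probe set 1449799_s_at gave 1426 and 889 in emN1, 2635 and 1527 in anN1, and 2002 and 1899 in wild-type. Both emN1 arrays were under all controls, with a difference of -0.95 (SE 0.17; limma adjusted p = 0.0225), and its other kept probe set differed by -0.60 (SE 0.22) without passing. The values that follow show the range of the list and were picked after they were seen. Cdsn, the corneodesmosin of cornified layers, differed by 1.11 (SE 0.25; limma adjusted p = 0.0508). It gave 2014 and 5653 in emN1, 1303 and 2076 in anN1, and 2683 and 1613 in wild-type. Its emN1 replicate 1 thus fell among the controls. The epidermal desmogleins Dsg1b and Dsg1a differed by 0.51 (SE 0.16) and 0.07 (SE 0.09), and Perp, a membrane protein of desmosomes, by -0.03 (SE 0.08).

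In adherens junctions, which share plakoglobin with desmosomes, 1 of 12 genes rose and 11 did not pass (median 0.15). Nectin3, an adhesion molecule of these junctions, gave 6255 and 5530 in emN1, 2790 and 3671 in anN1, and 2278 and 2913 in wild-type with its brightest probe set. It rose by 1.02 (SE 0.19; limma adjusted p = 0.026), and 3 of its 4 kept probe sets passed. The classical cadherin Cdh1 differed by -0.15 (SE 0.10) without passing. Of 12 tight and gap junction genes 1 fell, Gjb6, a connexin of skin and inner ear, by 0.61 on the log2 scale (SE 0.12; limma adjusted p = 0.0315), and 11 did not pass (median -0.01), each gene read from its brightest probe set. For the claudin Cldn3, singled out after its values were seen, the brightest differed by 1.16 (SE 0.32; limma adjusted p = 0.0959) and the other 3 of its 4 kept probe sets passed. The Gjb6 signals were 8843 and 7434 in emN1, 14545 and 11924 in anN1, and 11154 and 9499 in wild-type.

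Of 9 proteases and inhibitors that act on desmosomes 2 rose and 7 did not pass (median 0.24). Klk7, a protease that cuts corneodesmosomes in shedding epidermis, gave 24026 and 17522 in emN1, 5973 and 7064 in anN1, and 3371 and 4209 in wild-type. It rose by 1.95 (SE 0.26; limma adjusted p = 0.00661). Cst6, an inhibitor of cysteine proteases in cornifying layers, gave 5179 and 3706 in emN1, 2009 and 1398 in anN1, and 482 and 781 in wild-type. It rose by 1.85 (SE 0.39; limma adjusted p = 0.0392). For both Klk7 and Cst6 the anN1 arrays were also above the wild-type ones. Those differences were 0.73 (SE 0.21) and 1.17 (SE 0.28), neither past the threshold. None of 3 regulators of shaft desmoglein expression passed, with Lef1 at -0.48 (SE 0.14) and Foxn1 at 0.24 (SE 0.13). The other kept probe set of Lef1 differed by -0.60 (SE 0.16) and that of Foxn1 by 0.11 (SE 0.22), neither past the threshold. Both Lef1 probe sets had each emN1 array under all controls, as did 9.33% of all kept probe sets.

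**Figure D4:**
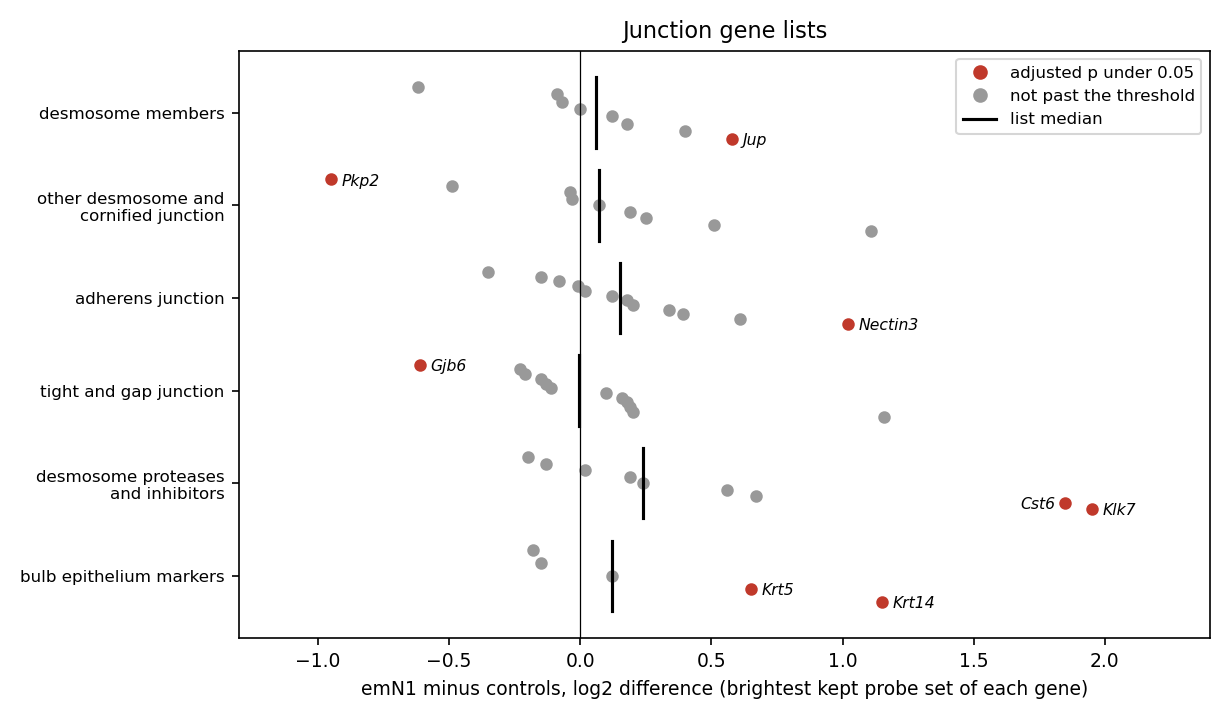
Log2 difference between 2 emN1 and 4 control arrays (horizontal axis) for each gene's brightest kept probe set, in 6 gene lists (vertical axis), with red points for an adjusted p under 0.05, grey points for the others and a black bar for the list median. Jup is the single red point among the desmosomal members, and Klk7 and Cst6 lie farthest to the right.

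Of 5 markers listed for the bulb epithelium 2 rose, and the list is not by itself a measure of epithelial content. Krt14 and Krt5, the keratin pair of basal and outer sheath cells, rose by 1.15 (SE 0.11) and 0.65 (SE 0.08; limma adjusted p = 0.00247 and 0.00576). Cdh1, Cdh3 and Epcam did not pass, at -0.15, 0.12 and -0.18. The summed signal of these 5 genes was 78182 and 89571 in emN1, against 58296 to 78101 in the controls, and the sum of the 8 desmosomal genes was 225886 and 239868 in emN1, against 209449 to 244002. The first sum was higher in emN1 than in all controls, by little for emN1 replicate 1, and the second was within their range. Krt5 made up 37167 and 44856 of the first sum in emN1. Dsp made up 56062 and 63517 of the second, against 7256 and 9902 for Jup. Each sum thus mostly follows its brightest genes and says little about the dimmer ones. Of shaft markers 4 of 7 rose, of inner root sheath markers 2 of 8, of epidermis markers 1 of 5, and of outer root sheath and basal markers 4 of 6 rose and 2 fell. The inner root sheath keratin Krt26 rose by 2.97, the epidermal calmodulin-like gene Calm4 by 3.25 and the sheath keratin Krt16 by 3.13 on the log2 scale. The shaft keratin Krt86 rose too, at 14262 and 20088 in emN1, 525 and 327 in anN1, and 103 and 32.7 in wild-type, where both values are under the background limit. Values that went less far or the other way were picked after they were seen. The 2 sheath keratins that fell were Krt17 (-0.69, SE 0.14) and Krt75 (-0.80, SE 0.12). The inner root sheath median was 0.22. The shaft keratin Krt35 differed by -0.53 (SE 0.16) without passing, with both emN1 arrays under all controls. Between anN1 and wild-type 3 of the 7 shaft markers were higher past the threshold, so the control groups differed in these markers. In the epidermis list 3 of 5 genes were above 0, and Lor, a protein of the cornified envelope singled out after its values were seen, was at -1.15 (SE 0.26; limma adjusted p = 0.0501) with both emN1 arrays under all controls. The epidermis sum was 51043 and 36819 in emN1, against 7944 to 14415 in the controls, with Flg under the background limit on all arrays. Calm4 made up 39464 and 25297 of it in emN1, and without Calm4 the sum was 11579 and 11522 in emN1, against 6096 to 10898 in the controls. The part of these layers in the Jup and Pkp3 values was not tested. Of the calls on Jup, Pkp2, Nectin3, Gjb6, Klk7, Cst6, Krt14 and Krt5, 8 of 8 were lost without the intensity trend and without emN1 replicate 2, 6 without the set term (all but Klk7 and Krt14), 7 without emN1 replicate 1 or anN1 replicate 1 (all but Krt14), 3 without wild-type replicate 1 (Jup, Pkp2 and Gjb6) and 2 without anN1 replicate 2 (Jup and Gjb6). Over those arrays left out in turn, the log2 values were -1.01 to -0.88 for Pkp2, 0.93 to 1.16 for Nectin3, -0.72 to -0.54 for Gjb6, 1.82 to 2.12 for Klk7, 1.36 to 2.17 for Cst6, 1.12 to 1.19 for Krt14 and 0.59 to 0.69 for Krt5.

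Finally, the genes whose signals most resembled each member over the 6 arrays were found among 9571 genes by Pearson's r of log2 signal. For Jup these were Pth1r (r = 0.985), Capg (0.984) and Parva (0.974). For Dsg2 1439476_at they were Prelid2 (0.998), Mgat4b (0.992) and Abhd8 (0.986), and for Pkp3 1418831_at Phyh (0.997), Ino80c (0.997) and Mertk (0.984). For Dsc3 1434534_at they were Ilrun (0.997), Trim3 (0.996) and Slu7 (0.994), and for Dsc2 1426911_at Cxxc5 (0.984), Lgals12 (0.984) and Arpc4 (0.977). For Dsc1 1456203_at they were Nfx1 (0.999), Tasor2 (0.998) and Atad1 (0.996), for Dsp 1435494_s_at Snx22 (0.995), Lsm12 (0.992) and Marchf8 (0.992), and for Pkp1 Cdc42bpb (0.999), Klc4 (0.990) and Etv2 (0.982). Dsp 1435494_s_at and Dsc1 1456203_at themselves varied little, with an SD of 0.09 and 0.18 log2 units over the arrays. Both are under the 0.2 asked of the genes compared. All these r are the highest of many values over few arrays that share sets, and they are given as a description.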

How the data were processed

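The authors deposited 1 linear intensity for each probe set and array (6 arrays, 2 per group). The submitters' processing notes name MAS5, and the sources used here do not give its version, scaling or detection calls. Groups and replicates came from the sample titles and array sets from the design text. Of 45101 probe sets, 64 controls were left out. Genes were named from the platform annotation (34958 probe sets with 1 symbol, 932 with several, 9211 with none), and the 19 members matched the annotation of GRCm38.p6 by gene identifier.

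Signals were transformed to log2(signal + 17.8), the 10th percentile of all values, so differences of dim genes are understated. The upper 60% by mean log2 signal was kept (27022). Differences were tested, two-sided, with lmFit and eBayes (intensity trend) of limma 3.58.1 under R 4.3.3, with array set as a term. P-values were adjusted by Benjamini-Hochberg over all kept probe sets. The 4 controls were pooled in one model, which left 3 residual degrees of freedom, and a 3-group model left 2. The fit was tested on simulated data. The background limit is the 95th percentile of 120 values of 20 bacterial control probe sets (Bio and Dap, taken after their values were seen to be dim on all arrays; median 24.4). With no counts, the number of arrays limits the precision.

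The design text puts same-numbered emN1 and anN1 samples in the same array set, so their numbers pair them. Their replicate differences correlated with r = 0.381 over 27022 probe sets, and with -0.188 and -0.0222 for pairs with wild-type, whose numbers mark no set.

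The members, lists and tests were chosen with earlier results of these data known. Named were all members, Notch1, from each other list up to 3 genes past the threshold in emN1 minus controls by size (or the 2 with the smallest p), and for each member the 3 genes most alike (SD of at least 0.2). Genes outside this rule are said to be so, or are members of a list given for its range. Alternatives changed the pseudocount, filter, scaling, trend, set term, a floor on dim signals, the arrays and the probe set summary.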

Additional observations from a re-analysis of the deposited data

How the results depend on the processing

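The number of members past the threshold rests on 1 gene. Against the controls, the 1 member higher past the threshold became 0 with a pseudocount of 1 (Jup limma adjusted p = 0.0507), without the filter on dim probe sets (0.0607), with median scaling (0.165), without the intensity trend (0.211) and without the replicate block, that is without the set term (0.46), which in this fit pairs emN1 and anN1. Over the arrays left out in turn it was 0 to 1. The number lower was 0 in all settings. Against anN1 the number higher was 0 to 1 over the arrays left out, the 1 being Jup without either wild-type array (limma adjusted p = 0.0178 and 0.0214). Against wild-type the number lower was 0 to 2, the 2 being Dsg2 1439476_at and Dsp 1435493_at (-0.61) without wild-type replicate 2. A fit with 1 array left in a group takes that group's spread from the others, with 1 residual degree of freedom in the 3-group model. With emN1 or anN1 replicate 1 left out, the set term takes up the other array of the first set. These fits then rest on the second set alone and are not separate checks. Without emN1 replicate 2, emN1 minus controls is emN1 replicate 1 minus anN1 replicate 1.

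Signs turned for values of 0.24 or less in size, none of them called. Without the replicate block, Dsc1 1421460_at was -0.22, Dsc3 1427637_a_at -0.23, Dsc3 1434534_at -0.06, Dsp 1427610_at -0.19 and Dsp 1435494_s_at -0.04. Leaving out emN1 replicate 1 or anN1 replicate 1 gave -0.08 for Dsc1 1421460_at, -0.22 for Dsc3 1427637_a_at and -0.04 for Dsc3 1434534_at. Dsc3 1427637_a_at was -0.09 without anN1 replicate 2. Dsc2 1421156_a_at was 0.39 without emN1 replicate 2, and 0.08 and 0.04 without wild-type replicate 1 and 2. Dsp 1435494_s_at was -0.003 with quantile normalization, -0.03 with median scaling and -0.01 without emN1 replicate 2 or anN1 replicate 2. Pkp1 was -0.01 without emN1 replicate 2, and Dsc1 was 0.0006 as the mean of its probe sets. Over the 6 arrays left out in turn the highest values were 0.29 for Dsc1 1421460_at, 0.41 for Dsc3 1427637_a_at, 0.52 for Dsc3 1434534_at, 0.01 for Dsp 1435494_s_at and 0.21 for Pkp1, and the lowest for Dsc2 1421156_a_at was -0.27. The causes were not tested.

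Array-wide, calls in emN1 minus controls numbered 650 upward and 370 downward. These counts were 0 and 0 without the intensity trend, 192 and 94 without the replicate block, 0 and 1 without emN1 replicate 2, 96 and 63 without emN1 replicate 1, and 129 and 63 without anN1 replicate 1. The lower count was 248 without wild-type replicate 1 and 226 without anN1 replicate 2. With 2 arrays a group, the calls named here rest on how limma shares the spread between probe sets. Jup and the other 7 named calls were run under these alternatives after their values were seen.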
